A study of Mus musculus with 14 samples.

Results

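Gene expression in hippocampus and heart of C57BL/6 mouse pups was compared on 6 Affymetrix mouse genome arrays, 1 for each sample. The 6 samples were chosen by their titles, 3 of hippocampus and 3 of heart from untreated animals 7 days old, and make up 6 of the 10 biological samples and 6 of the 14 arrays of the series. The sex of the pups was not given, both tissues were dissected and went through the same mRNA isolation, and the methods call the 3 samples of a tissue different biological samples without saying whether a heart and a hippocampus came from the same pup. The closest comparison in the series is the same pair of tissues from male C57BL/6 mice 10 weeks old, whose RNA was purchased, with 2 replicates and 4 arrays for each tissue. Age therefore cannot be told apart from RNA source and preparation. The comparison covered 18194 genes, each read from 1 probe set (a group of short probes for 1 transcript). A level is the deposited log2 value, and a difference is the mean level in hippocampus minus that in heart, so that 1 unit is a factor of 2 and positive values are higher in hippocampus. Genes were called, and are described as higher or lower, where limma's Benjamini-Hochberg adjusted p was under 0.05 over all genes. The p-values measure only the spread between samples, which was taken over all 10 biological samples with the adult ones included.

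Heart muscle cells hold arrays of sarcomeres, in which myosin thick filaments pull on actin thin filaments when calcium leaves the sarcoplasmic reticulum and binds troponin, and after birth they come to burn mainly fatty acids in dense mitochondria. The hippocampus is a cortical region of pyramidal neurons, dentate granule neurons, inhibitory interneurons and glia, and in the first postnatal weeks its granule neurons are still being born and its neurons are extending neurites and building synapses. Fibroblasts, endothelium and other cells make up much of the young heart beside its muscle cells. In bulk tissue, a lower level from fewer cells of a type and one from less RNA per cell cannot be told apart.

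Promoter sequences are shown first for some genes of the contractile machinery and for a pair of genes of young neurons. The former were higher in heart and the latter higher in hippocampus. The sequences are the 250 bases before the annotated start, 5′ to 3′ on the gene's strand, from RefSeq on build GRCm38.p6. Capitals mark matches to the CArG box (the site of serum response factor), the MEF2 site (the site of myocyte enhancer factor 2) and TATAAA (the TATA box) in these promoters.
Actc1 promoter: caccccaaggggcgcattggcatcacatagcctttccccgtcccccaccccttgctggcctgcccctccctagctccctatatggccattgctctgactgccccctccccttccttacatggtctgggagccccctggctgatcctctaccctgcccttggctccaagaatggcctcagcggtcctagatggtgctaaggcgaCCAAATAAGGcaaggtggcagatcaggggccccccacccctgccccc
Acta1 promoter: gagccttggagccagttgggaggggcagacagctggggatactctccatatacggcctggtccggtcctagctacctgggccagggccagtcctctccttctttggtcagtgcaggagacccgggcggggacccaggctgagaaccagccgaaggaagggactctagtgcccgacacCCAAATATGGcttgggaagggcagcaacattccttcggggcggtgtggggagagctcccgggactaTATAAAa
Myl3 promoter: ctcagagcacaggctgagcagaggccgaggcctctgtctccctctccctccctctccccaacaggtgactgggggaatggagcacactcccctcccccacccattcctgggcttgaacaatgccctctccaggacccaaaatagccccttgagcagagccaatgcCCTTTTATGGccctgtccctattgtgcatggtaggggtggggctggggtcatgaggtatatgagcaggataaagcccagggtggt
Myl7 promoter: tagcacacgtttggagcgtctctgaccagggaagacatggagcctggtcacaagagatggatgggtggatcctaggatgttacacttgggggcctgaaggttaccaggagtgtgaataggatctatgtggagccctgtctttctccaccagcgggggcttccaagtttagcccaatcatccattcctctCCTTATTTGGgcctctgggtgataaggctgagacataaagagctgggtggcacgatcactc
Ttn promoter: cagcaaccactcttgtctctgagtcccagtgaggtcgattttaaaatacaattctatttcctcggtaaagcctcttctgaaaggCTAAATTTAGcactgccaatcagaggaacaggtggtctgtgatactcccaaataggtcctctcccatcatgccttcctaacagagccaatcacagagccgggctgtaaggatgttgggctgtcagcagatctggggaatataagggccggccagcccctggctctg
Nnat promoter: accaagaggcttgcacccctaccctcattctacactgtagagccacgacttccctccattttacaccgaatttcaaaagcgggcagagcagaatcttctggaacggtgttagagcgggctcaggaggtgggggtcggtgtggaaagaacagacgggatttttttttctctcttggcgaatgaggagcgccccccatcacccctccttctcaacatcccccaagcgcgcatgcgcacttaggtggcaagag
Neurod1 promoter: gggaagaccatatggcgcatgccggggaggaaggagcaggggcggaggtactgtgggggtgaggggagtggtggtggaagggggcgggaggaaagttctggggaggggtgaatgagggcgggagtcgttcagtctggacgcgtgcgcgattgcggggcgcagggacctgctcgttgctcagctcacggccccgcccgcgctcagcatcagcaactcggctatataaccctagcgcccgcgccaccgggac
These lie at chr2:114052876-114053125 on the minus strand for Actc1 (cardiac actin), chr8:123894776-123895025 on the minus strand for Acta1 (skeletal actin), chr9:110763428-110763677 on the plus strand for Myl3 (ventricular essential myosin light chain), chr11:5898783-5899032 on the minus strand for Myl7 (atrial regulatory myosin light chain), chr2:76982548-76982797 on the minus strand for Ttn (titin, the elastic filament of the sarcomere), chr2:157559828-157560077 on the plus strand for Nnat (neuronatin, a small membrane protein of developing neurons) and chr2:79456637-79456886 on the minus strand for Neurod1 (a transcription factor of granule neurons). A CArG box began 47 bases before the start of Actc1, 73 before that of Acta1, 85 before that of Myl3 and 61 before that of Myl7. The promoter of Ttn held a MEF2 site that began 166 bases before the start. Neither motif was in the windows of Nnat and Neurod1. Every muscle promoter shown held a CArG box or a MEF2 site, so they do not stand for their group. Of 42 promoters of filament and Z-disc genes higher in heart, 8 held a CArG box and 6 a MEF2 site.

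Across promoters the motifs were counted in windows from 250 bases before to 50 after the start on both strands, where matches of different motifs may share bases. Of the 18194 genes, 14453 matched an entry by symbol. Among the 37 genes of the filament and Z-disc lists that were higher in heart, 29 matched with 42 promoters, and 8 of these (19%) held a CArG box. All 32851 promoters in the table had one in 1.63%, promoters of genes higher in heart in 2.65% (36 of 1356) and promoters of genes higher in hippocampus in 1.29% (21 of 1632). The MEF2 site was in 6 of the 42 (14.3%), in 3.19% of all promoters and in 0 of 49 promoters of neuronal list genes higher in hippocampus. The M-CAT motif GGAATG, bound by TEAD factors, was in 33.3% of the 42 against 14.7% of all promoters. The GATA motif AGATAA was in 23.8% against 11.2%, the E-box CANNTG in 85.7% against 72.3% and TATAAA in 14.3% against 13.6%. Promoters of the neuronal list genes had M-CAT in 10.2%, GATA in 18.4%, the E-box in 79.6%, TATAAA in 16.3% and the CArG box in 4.08%. For all genes tested these shares were 13.2%, 8.09%, 67.4%, 9.77% and 1.35%. Promoters of genes higher in hippocampus had a median GC content of 61.7% and a median of 20 CpG dinucleotides, against 58.0% and 15 in those higher in heart and 58.0% and 16 in those not called. In the filament and Z-disc promoters the median was 5 CpG dinucleotides. These are counts of letters in short windows and were not tested.

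Arrays of hippocampus resembled each other more than those of heart. Pearson's r across probe sets averaged 0.966 between hippocampus samples (0.963 to 0.968), 0.941 between heart samples (0.933 to 0.951) and 0.898 between the tissues (0.890 to 0.912). Pup hippocampus replicate 1 stood apart in transcripts of heart muscle. Of 58 genes of the filament, Z-disc, calcium cycling and muscle enzyme lists that were higher in heart, it had the highest hippocampus level for 33 (56.9%), against 43.6% of all 1351 genes higher in heart and 38.0% of all genes tested. On the linear scale the level of Actc1 was 43.6% of the mean heart level in hippocampus replicate 1, 9.01% in replicate 2 and 2.00% in replicate 3. For Myh6, the main cardiac myosin heavy chain of mice, these shares were 6.4%, 1.69% and 0.896%, and for Ttn 1.72%, 1.34% and 1.06%. The heart levels of Actc1 (15.98, 15.93 and 15.96) lay close to the highest deposited values. Levels there limit differences, so the Actc1 shares are not exact and may be too high. The part of such heart muscle transcripts in other differences was not tested. Without hippocampus replicate 1, 54 of the 58 genes were still called and the median of their differences moved from -4.25 to -4.32.

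Between the tissues, 2856 genes were called, 15.7% of those tested. Of these, 1505 (8.27% of those tested) were higher in hippocampus and 1351 (7.43%) higher in heart. The samples of the tissues did not overlap for 2849 of them, which the choice of genes by a small p favours. With only the 6 pup arrays in the fit, 1986 genes were called. The median difference over all genes was -0.10 and the median standard error 0.30. Large differences were more often toward hippocampus: 541 genes were at least 4-fold higher there and 325 in heart, 131 and 58 were at least 16-fold higher, and 25 and 8 at least 64-fold. The deposited values end near 16, and the strongest genes of both tissues lay close to that value, so the largest folds are not exact.

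**Figure D1:**
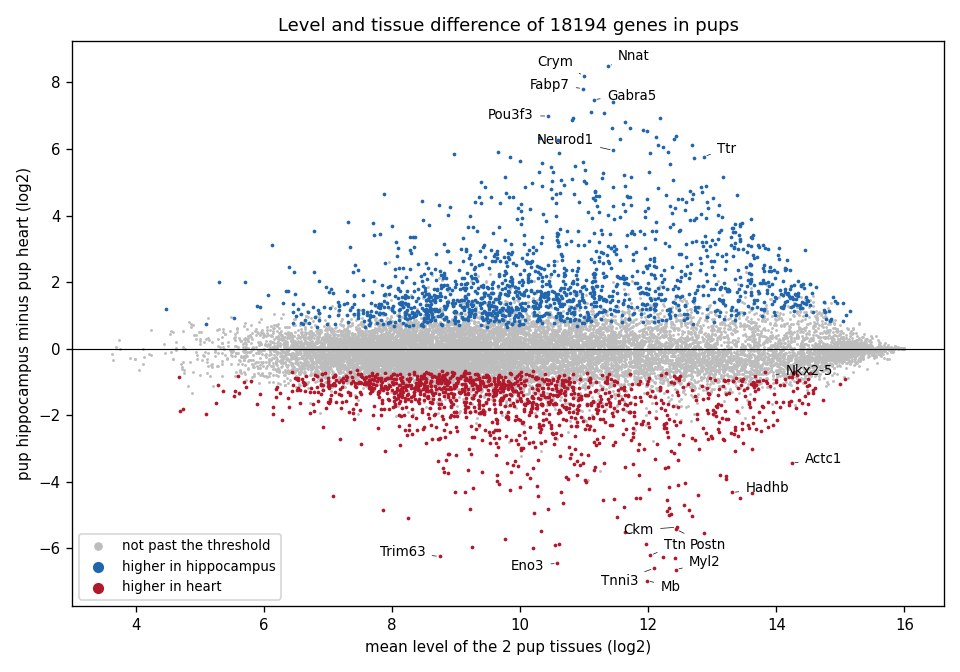
Each point is a gene, with its mean level over both pup tissues on the x axis (log2) and the difference hippocampus minus heart on the y axis (log2). Blue points (1505) were higher in hippocampus, red points (1351) higher in heart and grey points were not called, and differences narrow toward the highest levels near 16.

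The labelled tissues were checked by defining markers. Of the 6 heart markers, 5 were higher in heart. Tnnt2, the cardiac troponin T that ties troponin to tropomyosin, had levels of 10.89, 8.73 and 7.67 in hippocampus and 15.40, 15.38 and 15.31 in heart (difference -6.27, SE 0.66, adjusted p = 0.000232). Actc1 had 14.76, 12.49 and 10.31 in hippocampus and 15.98, 15.93 and 15.96 in heart (-3.44, SE 0.87, adjusted p = 0.0271). The heart samples of both genes were tightly grouped and lay above all hippocampus samples, which were spread widely. Nppa, the atrial natriuretic peptide, had 10.83, 11.39 and 10.15 in hippocampus and 15.30, 13.06 and 14.05 in heart (-3.35, adjusted p = 0.00245). The exception was Nkx2-5, an early cardiac transcription factor, which had 13.51, 13.47 and 13.66 in hippocampus and 13.53, 14.79 and 14.69 in heart (-0.79, adjusted p = 0.18). Its single probe set gave a high level in every hippocampus sample and no call. Of the 5 hippocampus markers measured, 4 were higher in hippocampus. Tubb3, a neuronal tubulin, had 10.23, 10.51 and 10.51 in hippocampus and 6.79, 6.20 and 6.64 in heart (3.87, SE 0.30, adjusted p = 3.33e-05). Snap25, a SNARE protein of synaptic vesicle fusion, had 9.72, 9.90 and 10.12 against 7.23, 7.47 and 8.06 (2.32, SE 0.26, adjusted p = 0.000371). Neurod6, a transcription factor of pyramidal neurons, differed by 4.31 (adjusted p = 1.5e-05). No call was made for Prox1, a factor of dentate granule neurons, with 10.97, 10.84 and 11.12 in hippocampus and 10.87, 11.20 and 11.47 in heart (-0.20, adjusted p = 0.758).

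The 10 genes highest above hippocampus in heart were nearly all parts of the contractile apparatus or muscle enzymes. Mb, myoglobin, the oxygen store of muscle, had 10.22, 8.25 and 7.01 in hippocampus and 15.58, 15.29 and 15.53 in heart, a 125-fold difference (-6.97, SE 0.66, adjusted p = 0.000118). Myl2, the ventricular regulatory light chain of myosin, had 11.15, 8.90 and 7.27 against 15.82, 15.71 and 15.71 (99.9-fold, adjusted p = 0.000414). For both genes all 3 heart samples lay near the top of the scale and hippocampus replicate 1 was the highest of its group. Without hippocampus replicate 1 the differences were -7.83 for Mb and -7.66 for Myl2, and those of other muscle genes also widened, to -4.56 for Actc1, -7.21 for Tnnc1, -7.17 for Tnnt2, -6.34 for Myh6, -7.12 for Eno3 and -6.43 for Cox8b. Tnni3, the cardiac troponin I that holds contraction off at low calcium, had 9.68, 8.17 and 8.53 against 15.49, 15.18 and 15.50 (-6.60, SE 0.37, adjusted p = 5.71e-06). Ttn had 9.28, 8.91 and 8.58 against 15.17, 15.09 and 15.16 (-6.21, SE 0.29, adjusted p = 2.13e-06). These last genes had tight heart groups. For Ttn the value turned on the probe set, and with probe sets of types that can match several transcripts left out its difference was 0.25 (adjusted p = 0.456). Eno3, the muscle enolase, differed by -6.45, Tnnc1, the troponin subunit that binds calcium, by -6.29, Tnnt2 by -6.27, Trim63, a muscle ubiquitin ligase, by -6.24, Csrp3, a LIM protein of the Z-disc, by -5.99 and Trdn, triadin of the calcium release complex, by -5.97.

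The sarcomere lists had the largest shares of called members. Of 13 thick filament and titin genes, 10 were higher in heart and 0 in hippocampus, with a median difference of -3.98, against -0.10 over all genes. Myh6 differed by -5.55, and its levels of 15.66, 15.50 and 15.79 in heart stood against 11.68, 9.76 and 8.85 in hippocampus. Myl3 had 15.84, 15.64 and 15.89 in heart against 11.89, 11.34 and 11.13 (-4.34, adjusted p = 6.11e-06). Of 13 thin filament genes, 10 were higher in heart (median -2.20). The fetal troponin I gene Tnni1 was among them at -4.50, with 9.16, 8.44 and 11.25 in hippocampus and 14.82, 14.26 and 13.27 in heart, a wider spread than for Tnni3. The count of called thin filament genes was 6 without pup heart replicate 1 and 6 with only the pup arrays in the fit. Among 22 Z-disc and costamere genes, which anchor filaments to each other and to the membrane, 17 were higher in heart (median -2.83). They included Smpx, a small muscle protein (-5.88), Nrap, a scaffold of forming myofibrils (-5.09), and Cryab, a chaperone of the Z-disc (-4.98).

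Calcium and rhythm genes were called both ways. Of 20 genes of calcium cycling, 10 were higher in heart and 1 in hippocampus (median -1.18). Hrc, a calcium-binding protein of the sarcoplasmic reticulum, had 15.12, 14.78 and 14.81 in heart against 9.72, 8.65 and 8.74 (-5.87, adjusted p = 3.9e-06). Srl, sarcalumenin, differed by -4.86 and the calcium store Casq2 by -4.70. The member higher in hippocampus was Fkbp1b, a partner of ryanodine receptors, with 12.36, 11.91 and 11.69 there and 7.82, 8.65 and 7.73 in heart (3.92, adjusted p = 3.39e-05). Of 21 cardiac ion channel and junction genes, 7 were higher in heart and 2 in hippocampus. Dsp, desmoplakin of the desmosome, had 12.73, 11.87 and 14.60 in heart and 7.82, 7.56 and 7.37 in hippocampus (-5.49, SE 0.57, adjusted p = 0.000214). Abcc9, a subunit of ATP-sensitive potassium channels, differed by -4.77 and Kcne1, a regulator of the delayed rectifier, by -3.63. Higher in hippocampus were the potassium channel Kcnd3 (2.42) and the desmosomal cadherin Dsc2 (0.83). For Dsc2 a second probe set was called the other way, at -2.39.

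Most cardiac transcription factors were not called. Of 25, 6 were higher in heart, 1 in hippocampus and 18 were not called (median -0.72). Irx3, an Iroquois homeobox factor of conduction tissue, had 10.85, 10.67 and 11.59 in heart against 8.68, 7.77 and 8.15 (-2.84, adjusted p = 0.000263). The T-box factor Tbx20 differed by -1.44 and the basic helix-loop-helix factor Hand2 by -1.29. The reverse held for Mef2c, which serves neurons as well as muscle, with a mean of 14.57 ± 0.30 (SD, n = 3) in hippocampus and 12.90 ± 0.14 (SD, n = 3) in heart by limma (1.67, adjusted p = 0.00743). Of 8 natriuretic peptide and stress genes, 6 were higher in heart, among them Ankrd1, a nuclear ankyrin protein of muscle (-4.63), Corin, the protease that activates natriuretic peptides (-4.26), and Nppb, the B-type peptide (-1.69).

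**Figure D2:**
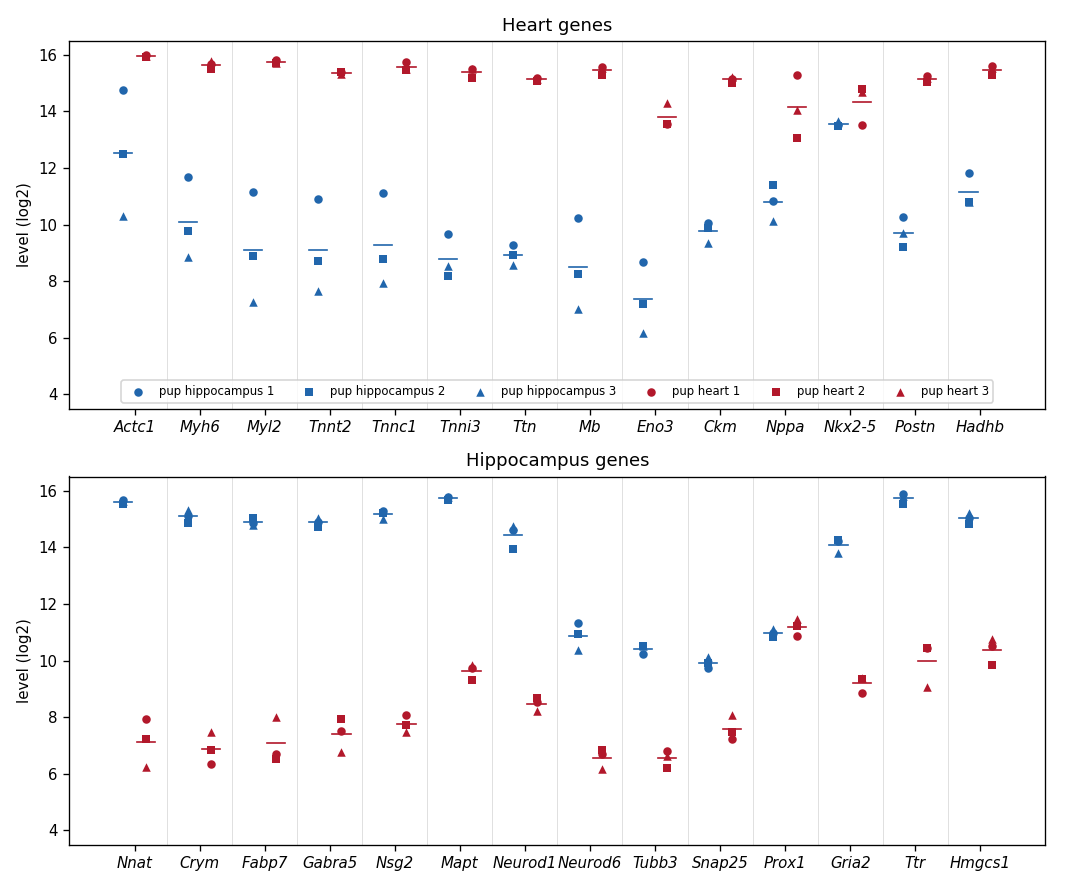
Levels (y axis, log2) of 14 heart genes and 14 hippocampus genes (x axis) in each of the 6 pup samples, with short lines at the group means. Hippocampus replicate 1 had the highest hippocampus level for Actc1, Myh6, Myl2, Tnnt2, Tnnc1, Tnni3, Ttn, Mb and Eno3, and the tissues overlapped for Nkx2-5 and Prox1.

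Mitochondrial fuel use was the next large group. Of 29 genes of fatty acid uptake and oxidation, 22 were higher in heart and 0 in hippocampus (median -2.69). Acadl, which starts the oxidation of long-chain fatty acids, had 13.57, 13.01 and 14.09 in heart and 9.42, 8.74 and 8.90 in hippocampus (-4.53, SE 0.30, adjusted p = 1.45e-05). Hadhb, of the trifunctional enzyme, had 15.60, 15.29 and 15.52 against 11.82, 10.80 and 10.82 (-4.32). Acadvl also differed by -4.53 and the medium-chain enzyme Acadm by -4.09. The medians of this list were 9.42, 9.38 and 9.60 in hippocampus replicates 1, 2 and 3. Replicate 1 was the highest hippocampus sample for Acadl, Hadhb (11.82, 10.80 and 10.82) and Acadvl (9.38, 9.14 and 9.07). It was the lowest for Acadm (10.22, 10.43 and 10.63). Of 22 genes of the tricarboxylic acid cycle, 11 were higher in heart and 1 in hippocampus (median -1.01). Idh2, the mitochondrial isocitrate dehydrogenase, differed by -4.96, fumarase Fh1 by -2.82, the pyruvate dehydrogenase subunit Pdhb by -2.41 and malate dehydrogenase Mdh2 by -2.35. The exception, Dlst of the oxoglutarate dehydrogenase complex, differed by 2.03, while another probe set of it was called at -1.79. With probe sets of types that can match several transcripts left out, 6 genes of this cycle were higher in heart. That setting kept 16593 of the 18194 genes, and Fh1 had no probe set in it.

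Of 68 genes of the respiratory chain and ATP synthase, 34 were higher in heart and 1 in hippocampus (median -1.22). Cycs, cytochrome c, had 15.24, 13.68 and 14.85 in heart and 10.64, 10.80 and 10.26 in hippocampus (-4.03, adjusted p = 0.000102). Cyc1, cytochrome c1 of complex III, differed by -3.03 and its iron-sulfur subunit Uqcrfs1 by -2.87. The member higher in hippocampus, Ndufb2 of complex I, differed by 4.10 in its brightest probe set and by -1.68 and -1.62 in the other probe sets, both called. Enzymes of glycolysis were called both ways, with 3 of 17 higher in hippocampus, 3 higher in heart and a median of -0.18. Of 21 muscle enzymes and oxygen carriers, 11 were higher in heart (median -1.56), among them Ckmt2, the mitochondrial creatine kinase of muscle (-5.72), and Cox8b, a cytochrome oxidase subunit of muscle (-5.51).

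Pairs of related genes, such as muscle and brain isoforms of an enzyme, were compared within each array by subtracting the level of a brain or general isoform from that of its muscle partner in each sample. Only the shift of this value between the tissues can be read, since the levels of different probe sets cannot be compared. Of 31 measured pairs, both genes were called in opposite directions in 3, both in the same direction in 3, the first gene, in most pairs the muscle form, alone in 11, the second gene alone in 11 and neither in 3. Creatine kinase was such an opposite pair. Ckm, the muscle form, had 10.06, 9.88 and 9.36 in hippocampus and 15.16, 15.02 and 15.22 in heart (-5.37, adjusted p = 1.48e-06). Ckb, the brain form, had 14.48, 13.89 and 14.70 in hippocampus and 10.70, 10.79 and 11.92 in heart (3.22, adjusted p = 0.000395). The samples of the tissues did not overlap for either form. In the phosphoglycerate mutases, Pgam2 of muscle differed by -3.71 and Pgam1 by 2.85, and in the enolases Eno3 differed by -6.45 and the neuronal Eno2 by 2.41.

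Muscle minus other isoform was shifted toward heart by 8.86 for the enolases, 8.59 for the cytosolic creatine kinases and 6.57 for the mutases. Where a single form was called, the aldolase of brain, Aldoc (7.08), moved without a call for the general Aldoa (-0.18), and the brain fatty acid binding protein Fabp7 (7.81) without one for the heart protein Fabp3 (0.01), whose most variable probe set was called at -5.90. The muscle subunits Cox7a1 (-4.94) and Cox8b (-5.51) of cytochrome oxidase were called, while Cox7a2 (-0.63) and Cox8a (-0.01) were not. The pairs were chosen with earlier results known, and the same count was not made over other pairs of genes. In 27 of the 31 pairs the 3 hippocampus values did not overlap the 3 heart values. In 1 of these, Bves and Popdc3, which are members of the Popeye family of striated muscle, the shift ran the other way (-1.29). The probe set used for Bves was not called (-0.06), with means of 14.49 in hippocampus and 14.55 in heart. The other probe set of Bves was called toward heart. With 3 samples against 3, an exact two-sided permutation test cannot go below 0.1, which it reached for Ckm and Ckb. The number of opposite pairs depended on the probe set: it was 8 with the mean over probe sets and 9 with the most variable probe set. With probe sets matching several transcripts left out it was 0, but Ckb, Pgam1 and Eno2 then had no probe set. The 3 opposite pairs could therefore not be read in that setting. The number was 5 without pup heart replicate 2.

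**Figure D3:**
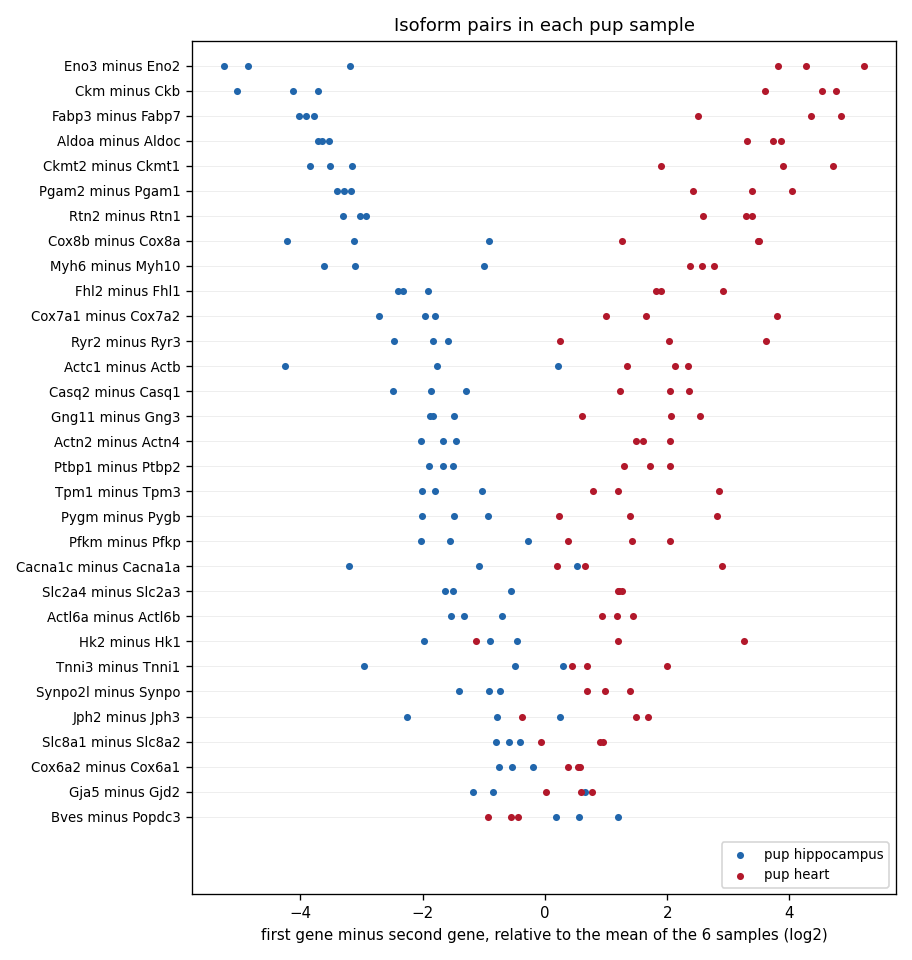
For each of 31 pairs (y axis), the level of the first gene minus that of the second is plotted in each pup sample relative to the mean of the 6 samples (x axis, log2), in blue for hippocampus and red for heart. The mean of the heart values lies to the right except for Bves and Popdc3, the tissues overlap in 4 pairs, and the widest gaps are those of Eno3 and Eno2 (8.86) and of Ckm and Ckb (8.59).

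Other cells of the heart were measured beside its muscle. Of 33 fibroblast and matrix genes, 20 were higher in heart and 0 in hippocampus (median -1.85). Postn, periostin, a matricellular protein of heart fibroblasts and valves, had 15.25, 15.03 and 15.16 in heart and 10.25, 9.19 and 9.71 in hippocampus, a 43.0-fold difference (-5.43, SE 0.28, adjusted p = 3.68e-06). Col3a1, collagen III, had 14.81, 13.89 and 15.01 against 10.06, 10.23 and 9.77 (-4.56). The microfibril protein Mfap5 differed by -4.14 and Col6a3, of collagen VI, by -3.53. Of 24 endothelial genes, 12 were higher in heart and 0 in hippocampus (median -1.19), among them Fabp4, a fatty acid carrier of capillaries (-4.89), Cdh5, the cadherin of endothelial junctions (-3.58), the water channel Aqp1 (-2.69) and the factor Ets1 (-2.43). Of 12 genes of the blood-brain barrier, 3 were higher in hippocampus and 1 in heart. Slco1c1, a thyroid hormone transporter of brain capillaries, had 13.43, 12.79 and 12.47 in hippocampus and 9.91, 11.11 and 9.68 in heart (2.66, adjusted p = 0.00156).

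Smooth muscle and blood lists were smaller. Of 12 smooth muscle and pericyte genes, 5 were higher in heart, including the actin Acta2 (-2.71) and Tagln, transgelin (-2.51), and 2 of 8 erythroid genes were higher in heart, Alas2 of heme synthesis (-1.94) and the blood group gene Kel (-1.19). Among 20 macrophage and leukocyte genes, 3 were higher in heart, the class II gene H2-Aa (-1.87), lysozyme Lyz2 (-1.68) and the complement gene C1qb (-1.29). That share, 15.0%, was near the 15.7% called over all genes tested. Kel (means 7.06 in hippocampus and 8.26 in heart) and C1qb (6.85 and 8.14) lay below the median of all values, 8.85, in both tissues. No microglial gene of 10 was called. Tissues that a dissection of the chest could carry along gave mixed counts: 2 of 10 lung epithelium genes were higher in heart and 2 in hippocampus, 1 of 11 thymocyte genes each way, and 1 of 8 brown fat genes was higher in heart. The called shares of these lists were 40.0%, 18.2% and 12.5%, against 15.7% of all genes tested. Of 36 cell cycle genes, 11 were higher in heart and 0 in hippocampus (median -0.73). Rrm2, a subunit of ribonucleotide reductase, had 12.37, 11.19 and 11.48 in heart and 9.30, 9.16 and 9.40 in hippocampus (-2.39, adjusted p = 0.00108, and 0.52 without a call with probe sets matching several transcripts left out), and the kinase Cdk1 differed by -1.96. That count was 6 without hippocampus replicate 2 and 6 with only the pup arrays in the fit.

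**Figure D4:**
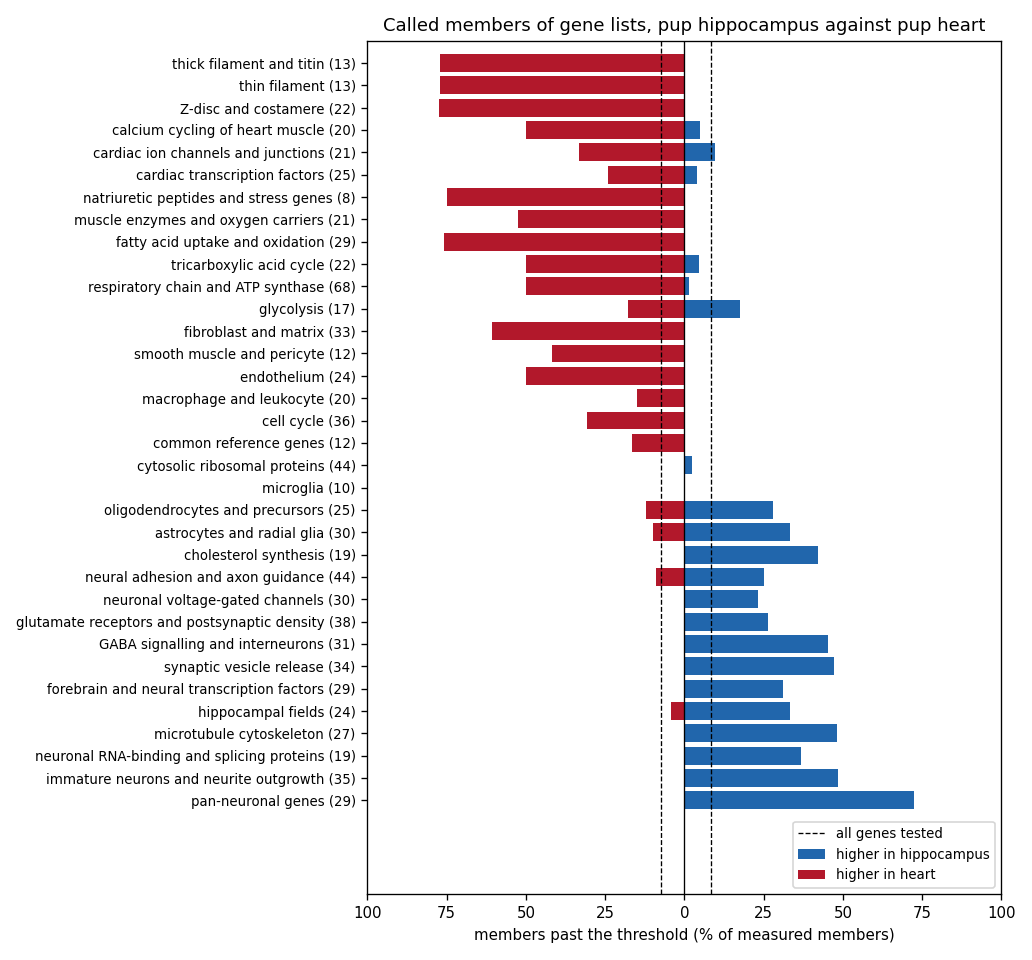
Share of the measured members of each gene list (number in brackets on the y axis) that was higher in hippocampus (blue, to the right) or in heart (red, to the left), in percent on the x axis. Dashed lines mark the shares over all genes tested, 8.27% and 7.43%, and the filament and Z-disc lists reach furthest toward heart while pan-neuronal genes reach furthest toward hippocampus.

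In hippocampus the largest difference was that of Nnat, with levels of 15.67, 15.54 and 15.63 against 7.95, 7.21 and 6.23 in heart (8.48, SE 0.43, adjusted p = 3.28e-06), or 358-fold. Crym, a thyroid hormone binding protein, followed with 15.10, 14.86 and 15.32 against 6.36, 6.83 and 7.47 (8.21, 295-fold). Both genes were near the top of the scale in every hippocampus sample. Fabp7, a lipid carrier of radial glia and young astrocytes, had 14.84, 15.02 and 14.80 against 6.69, 6.53 and 8.0 (7.81, 225-fold), and Gabra5, a GABA-A receptor subunit abundant in hippocampus, had 14.91, 14.72 and 15.04 against 7.49, 7.94 and 6.78 (7.48). The other genes among the 10 largest were Nsg2, an endosomal protein of neurons (7.41), Elmod1 (7.11), Aldoc (7.08), the neural POU factor Pou3f3 (6.99), the membrane proteolipid Gpm6b (6.93) and Rtn1, a reticulon of neurons (6.93). All 10 hippocampus genes had adjusted p-values of 3.28e-06 or below, as written for Nnat.

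Neuronal genes had the largest share of members higher in hippocampus. Of 29 pan-neuronal genes, 21 were higher in hippocampus and 0 in heart (median 3.41). Nefl, the light neurofilament, had 15.07, 14.94 and 15.07 in hippocampus and 7.74, 8.74 and 8.68 in heart (6.64, SE 0.30, adjusted p = 1.85e-06). Elavl3, an RNA-binding protein of neurons, differed by 6.37 and Mapt, the microtubule protein tau, by 6.11. Genes of immature neurons and neurite outgrowth had 17 of 35 higher in hippocampus and 0 in heart (median 1.23). They included Kif5c, a kinesin motor (6.88), Tubb2a, a beta tubulin (6.58), and Crmp1, a collapsin response mediator of growth cones (6.38). Of 27 microtubule genes, which overlap those lists, 13 were higher in hippocampus and 0 in heart (median 0.90).

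Map2, the dendritic microtubule protein that marks mature neurons, was an apparent exception that turned on the probe set. Its brightest probe set gave 15.33, 15.22 and 15.27 in hippocampus and 15.28, 15.27 and 15.25 in heart (0.00, adjusted p = 0.993), and a second, at 14.27 in hippocampus and 7.39 in heart on average, gave 6.89. The first values lay near the top of the scale in both tissues. Other genes were read in the same way. In a separate limma fit of all probe sets naming 1 gene, 1832 genes that were not called had at least 1 called probe set. These were called toward hippocampus alone in 930, toward heart alone in 841 and both ways in 61. The called probe set could be the brightest itself, as for Eif4h (1.61), whose limma adjusted p over genes was 0.0519. Another probe set was called for the heart genes Atp2a2, a calcium pump (-0.63 in the brightest and -5.01 in another), and Tpm1, a tropomyosin (-0.74 and -6.40). The same held for Dcx, a microtubule protein of migrating neurons (0.28 and 3.41). Map2, Atp2a2, Tpm1 and Dcx were chosen after their values were seen. In 126 of the 825 genes with at least 2 called probe sets, the calls ran in both directions. The widest spreads were those of Miat, a long noncoding RNA (-1.30 and 6.55), Gdap1, a mitochondrial fission protein (-1.61 and 4.64), Ndufb2 (-1.68 and 4.10), the adenylyl cyclase Adcy1 (-1.46 and 4.29) and the kinase Prkcb (-0.95 and 4.74).

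Transcription factors of the forebrain and neural lineage were mostly not called, with 9 of 29 higher in hippocampus and 0 in heart (median 0.09). Pou3f3 had 13.98, 13.85 and 13.96 in hippocampus and 7.19, 7.09 and 6.55 in heart (6.99, SE 0.23, adjusted p = 7.17e-07). Its relative Pou3f1 differed by 5.12, the zinc finger factor Zbtb18 by 4.84 and Nfix, a nuclear factor I, by 3.66 (-0.68 and not called with probe sets matching several transcripts left out). The count was 17 with the mean over probe sets and 18 with the most variable probe set. Neurod1 had 14.60, 13.94 and 14.76 in hippocampus and 8.54, 8.69 and 8.20 in heart (5.96, SE 0.25, adjusted p = 1.51e-06). Of 24 genes that distinguish hippocampal fields, 8 were higher in hippocampus, led by Crym and Pou3f1, and Dsp, a marker of dentate granule neurons as well as of heart desmosomes, was higher in heart.

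Synaptic genes were higher in hippocampus wherever they were called. Of 34 genes of vesicle release, 16 were higher there and 0 in heart (median 1.15), a count that was 25 with the most variable probe set. Rab3c, a GTPase of synaptic vesicles, had 14.70, 14.63 and 14.92 in hippocampus and 7.97, 8.23 and 8.16 in heart (6.63, SE 0.19, adjusted p = 5.51e-07). Stx1a, syntaxin of the presynaptic membrane, differed by 5.15, the priming factor Unc13a by 4.99 and the active zone protein Erc2 by 4.56. Of 38 genes of glutamate receptors and the postsynaptic density, 10 were higher in hippocampus and 0 in heart (median 0.25), and 16 with the mean over probe sets or the most variable one. Cnih2, an auxiliary subunit of AMPA receptors, differed by 5.49 and the metabotropic receptor Grm7 by 5.04. Gria1, an AMPA receptor subunit, had 12.18, 11.82 and 11.71 in hippocampus and 6.86, 7.43 and 6.36 in heart (5.02), and Gria2, the subunit that limits calcium entry, had 14.21, 14.27 and 13.78 against 8.86, 9.36 and 9.38 (4.88).

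Inhibitory signalling followed. Of 31 genes of GABA signalling and interneurons, 14 were higher in hippocampus and 0 in heart (median 0.86). Besides Gabra5 they included Cck, the peptide of basket cells, with 14.25, 13.36 and 12.84 in hippocampus and 7.24, 7.50 and 6.70 in heart (6.34), and Sst, somatostatin, with 12.07, 11.50 and 11.14 against 7.24, 7.41 and 6.96 (4.37). Slc12a5, the chloride exporter whose rise makes GABA inhibitory, had 14.79, 14.33 and 14.88 against 9.78, 9.22 and 9.08 (5.31, adjusted p = 3.61e-06). Of 30 neuronal voltage-gated channel genes, 7 were higher in hippocampus, led by the potassium channel Kcnd2 (4.04) and the calcium channel subunit Cacnb4 (3.04), and 13 with the most variable probe set. Of 44 adhesion and guidance genes, 11 were higher in hippocampus and 4 in heart. Chl1, a close homologue of L1, had 15.15, 15.00 and 14.99 against 8.38, 8.15 and 8.14 (6.82, SE 0.18, adjusted p = 3.79e-07), and L1cam itself differed by 5.91 and Cntn1, contactin, by 4.54. The members higher in heart were the guidance cue Ntn1 (-1.90), the Slit receptor Robo2 (-1.62), Cntnap1 (-1.15) and the plexin Plxnb3 (-0.98). For Plxnb3 the probe set brightest on the pup arrays gave 0.89 without a call. The adhesion count toward hippocampus was 21 with the most variable probe set.

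Glia gave shorter lists. Of 30 genes of astrocytes and radial glia, 10 were higher in hippocampus and 3 in heart (median 0.19), with 16 higher in hippocampus under the mean over probe sets or the most variable one. Bcan, brevican of the brain matrix, had 15.21, 15.19 and 15.26 in hippocampus and 9.39, 9.77 and 8.12 in heart (6.13, adjusted p = 9.58e-06). Gja1, a connexin, joins both astrocytes and heart muscle cells, and had 12.24, 13.34 and 12.63 in hippocampus and 13.86, 14.60 and 14.76 in heart (-1.67, adjusted p = 0.00895). The other members higher in heart were Ttyh1 (-1.51) and Hopx (-1.06). Ttyh1 is a chloride channel family member and Hopx a homeodomain protein of radial glia and of heart muscle. For Ttyh1 the limma adjusted p was 0.049 and the samples of the tissues overlapped. Other probe sets of Ttyh1 were called toward hippocampus, at 1.97 and 1.84. Of 25 oligodendrocyte genes, 7 were higher in hippocampus and 3 in heart. Olig1, a factor of the oligodendrocyte lineage, had 13.65, 12.91 and 13.07 against 7.89, 7.83 and 7.51 (5.47, adjusted p = 2.13e-06). Ermn (-1.42), Lims2 (-1.20) and Opalin (-0.75) were higher in heart. Opalin lay below the median of all values, 8.85, in both tissues, with means of 7.31 in hippocampus and 8.06 in heart. The count of 7 was 4 when any single pup hippocampus sample, pup heart replicate 1 or either adult heart sample was left out.

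Further groups were read from the same lists. Of 19 neuronal RNA-binding proteins, 7 were higher in hippocampus and 0 in heart, led by Elavl3 and Celf4 (4.73), and 12 with the most variable probe set. The muscle splicing factor Rbm20, which controls titin splicing, was higher in heart (-3.20), and Celf2 was higher in hippocampus (3.67). Of 19 genes of cholesterol synthesis, 8 were higher in hippocampus and 0 in heart (median 0.63). Hmgcs1, which makes the precursor of mevalonate, had 15.04, 14.83 and 15.22 in hippocampus and 10.52, 9.85 and 10.77 in heart (4.66, SE 0.26, adjusted p = 5.71e-06), and Insig1, a sterol sensor, differed by 2.92. Among 23 imprinted and growth genes, Nnat, Igfbp2 (2.94) and the noncoding RNA Meg3 (2.35) were higher in hippocampus and Grb10, an inhibitor of growth factor signalling, in heart (-1.60). Ttr, the thyroid hormone carrier made by choroid plexus and liver, had 15.90, 15.54 and 15.82 in hippocampus and 10.43, 10.45 and 9.06 in heart (5.77, adjusted p = 1.4e-05), and 1 of the other 12 choroid plexus genes was called, Aqp1, toward heart. Of 8 liver genes, Ttr alone was called. Cytosolic ribosomal proteins had 1 of 44 called. Of 12 common reference genes, Sdha (-2.28) and B2m (-2.07) were higher in heart and 10 were not called. The called shares were 17.4% for imprinted and growth genes, 15.4% for choroid plexus, 12.5% for liver and 16.7% for reference genes. Over all genes tested the share was 15.7%.

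The most expressed genes overlapped widely between the tissues. Of the 910 genes (5%) with the highest median rank in each, 682 were shared, and 0 of these were called. Among the 228 genes in the top of hippocampus alone, 106 were higher in hippocampus, and among the 228 in the top of heart alone, 41 were higher in heart. These sets of most expressed genes were chosen on the same samples, which favours calls in these directions. Within this upper range the values lie close to the end of the scale.

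The tissue difference of pups was set against that of adults, where 3580 genes were called. Pups and adults shared 1334 genes called in the same direction, 56 were called in opposite directions and 1466 were called in pups alone. The difference of the differences, pup minus adult, was called for 669 genes (3.68%), above the adult one for 445 and below it for 224. Of the 333 that were also called between the pup tissues, 201 were higher in pup hippocampus with a pup difference above the adult one and 102 were higher in pup heart with a pup difference below it. Age and RNA source cannot be told apart in this comparison. Left out in turn, the samples gave 153 (without adult hippocampus replicate 1) to 1002 called genes (without pup heart replicate 2), and 1754 genes were called with each of the 14 arrays as a sample.

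The genes with the largest pup differences were chosen on the pup values, which favours a pup difference beyond the adult one. Of the 10 toward hippocampus, pup minus adult was called for 9, and for Rtn1 it was 0.76 (adjusted p = 0.398). For Nnat the pup difference exceeded the adult one by 3.49, for Crym by 4.52 and for Fabp7 by 4.80. In the 10 largest heart genes, Trim63 (-2.11, adjusted p = 0.0461) and Trdn (-2.68, adjusted p = 0.0227) had pup differences below the adult ones and the other 8 were not called. Neurod1 was 62.1-fold higher in hippocampus in pups, while in adults the levels were 9.67 and 9.77 in hippocampus and 8.67 and 8.56 in heart, which left a difference of 4.86 between the ages (SE 0.40, adjusted p = 0.00206). Ttr was level between adult tissues, at 11.46 and 12.03 in hippocampus and 11.94 and 11.51 in heart (pup minus adult 5.75, adjusted p = 0.00415), and so was L1cam (5.72, adjusted p = 0.00249). Cep295, a centrosomal protein, had the largest value of all (6.18), with no call between the pup tissues (1.36, adjusted p = 0.127), and Prmt8, an arginine methyltransferase of brain, was higher in hippocampus in pups (2.84) and in heart in adults (-2.14), which made 4.98.

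Toward heart, the largest called values of pup minus adult were those of Mynn, a zinc finger protein (-5.19), Dsp (-4.96), Postn (-4.93), Col5a2, of collagen V (-4.61), and Tcf7l2, a Wnt pathway factor (-4.57). Postn was 43.0-fold higher in heart in pups, and its adult levels were 7.90 and 7.45 in hippocampus and 8.08 and 8.27 in heart. Its pup heart samples stood far above the adult ones. Tcf7l2 had 8.88, 8.83 and 8.91 in pup hippocampus and 10.28, 10.10 and 9.26 in pup heart (-1.01, adjusted p = 0.0373), and 12.28 and 12.63 in adult hippocampus against 8.97 and 8.82 in adult heart (3.56). With its most variable probe set, pup minus adult was 2.12 and called. Tcf7l2 also marks thalamus, which lies beside the hippocampus. Of the 12 genes of neighbouring brain regions, 2 (16.7%, against 15.7% of all genes tested) were called between the pup tissues. These were Gbx2 (-1.18) and Tcf7l2, both higher in heart. The pup means of Gbx2 were 6.43 in hippocampus and 7.61 in heart, both below the median of all values, 8.85. Gbx2, a homeobox factor of thalamus, had 9.18 and 9.45 in adult hippocampus and 7.77 and 7.96 in adult heart (1.45, adjusted p = 0.014 by limma), and its pup minus adult value was -2.62 (adjusted p = 0.0139). The part of neighbouring tissue in these values was not tested. Snap25 had a smaller tissue difference in pups, 2.32 against 4.26 in adults (pup minus adult -1.93, adjusted p = 0.0414), but its most variable probe set gave 1.63 without a call.

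**Figure D5:**
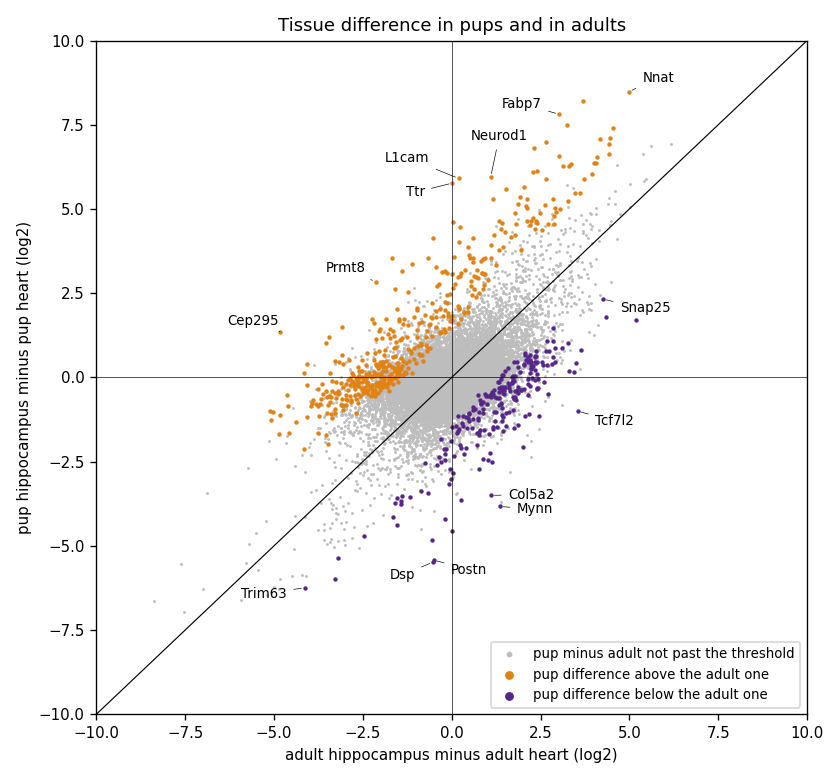
Each point is a gene, with the difference hippocampus minus heart in adults on the x axis and in pups on the y axis (both log2) and a line where they are equal. Orange points (445) had a pup difference above the adult one and purple points (224) one below it, among them Neurod1, L1cam and Ttr far above the line and Dsp, Postn and Mynn far below it.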

How the data were processed

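Labelled RNA from the 14 samples had been hybridized by the authors to Affymetrix mouse genome arrays, and the deposited log2 values came from RMA 2.0 with an upper-decile summary of each probe set. The median centring and range scaling named in the methods were not found in the deposited log2 values and were tried as an alternative. Of 45101 probe sets, 34958 named 1 gene, 932 several and 9211 none. Each of 18194 genes was read from the probe set that was brightest over the 14 arrays. Technical arrays of adult samples were averaged, and limma 3.58.1 in R 4.3.3 was fitted to the 10 biological samples in 4 groups, with Benjamini-Hochberg adjustment over all genes (residual degrees of freedom 6, prior 3.10). The contrasts were pup hippocampus minus pup heart and the pup minus the adult tissue difference. Arrays give no read depth, and their number limits the precision. The fit was tested on simulated data. The tissues, the gene lists, the isoform pairs and the motifs were chosen with earlier results of these data known. Named genes were the 10 largest called and non-overlapping differences each way, up to 4 called members of each list, defining markers, isoform pairs, list members called against their list's direction, the 5 largest pup minus adult values each way and up to 5 genes with probe sets called both ways, leaving out clone and model names. Alternatives changed the scaling, the probe set, the filter, the samples or the test.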

Additional observations from a re-analysis of the deposited data

Results flagged for a closer look

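The tissue difference of pups differed from that of adults, by the limma test of the difference itself, for 669 of 18194 genes (153 to 1002 with 1 sample left out), and age cannot be told apart from RNA source and preparation in any of them. Among the genes described above, pup minus adult was 6.18 for Cep295, 5.75 for Ttr, 5.72 for L1cam, 4.98 for Prmt8 and 4.86 for Neurod1. Among the largest pup differences toward hippocampus, it was 3.49 for Nnat, 4.52 for Crym, 4.80 for Fabp7, 4.25 for Gabra5, 2.87 for Nsg2, 2.65 for Elmod1, 2.91 for Aldoc, 4.32 for Pou3f3 and 2.50 for Gpm6b. Values below 0 were those of Mynn (-5.19), Dsp (-4.96), Postn (-4.93), Col5a2 (-4.61), Tcf7l2 (-4.57), Trdn (-2.68), Trim63 (-2.11) and Snap25 (-1.93).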

How the results depend on the processing

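The pup count of 2856 was 1378 with only the 6 pup arrays and a replicate block, 953 by the methods' t-test and 0 by that test at a false discovery rate of 0.1%, where limma called 670 genes, and 5178 genes had an unadjusted limma p under 0.05. Other settings gave 1986 to 3783, and leaving out 1 sample 1932 to 3661. The pup minus adult count of 669 was 45 with a replicate block and 1754 with each of the 14 arrays as a sample. Leaving out 1 sample gave 153 to 1002, with 420, 294 and 370 without pup hippocampus replicates 1, 2 and 3, 153 and 224 without adult hippocampus replicates 1 and 2, and 166 and 240 without adult heart replicates 1 and 2. Overlap of the most expressed genes was 78.7% in the top 10%. Among the list members, limma called 378 and the methods' t-test 180.

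The samples were not treated as paired, since the labels do not say that a number marks a shared animal or batch and the deviations of same-numbered samples correlated at 0.20, -0.09 and 0.0017. With the replicate block 2340 genes were called in pups, 3 cardiac transcription factors, 4 oligodendrocyte genes and 7 cell cycle genes. With only the 6 pup arrays, the counts were 6 thin filament, 4 oligodendrocyte and 6 cell cycle genes, and with the block added 5 thin filament, 6 calcium cycling, 3 cardiac transcription factor, 6 endothelial, 3 neuronal channel, 3 oligodendrocyte and 4 cell cycle genes. The mean over probe sets gave 17 forebrain factors, 16 glutamate and 16 astrocyte genes, and 8 opposite isoform pairs. The most variable probe set gave 18, 16 and 16 of these lists, 25 vesicle, 13 channel, 21 adhesion and 12 RNA-binding genes, and 9 pairs. Without probe sets that can match several transcripts there were 6 genes of the tricarboxylic acid cycle, 3 of smooth muscle and 7 of the cell cycle, and 0 pairs. That setting kept 16593 of the 18194 genes, so list members could drop out, and Ckb, Pgam1 and Eno2 of the opposite pairs had no probe set in it. Leaving out 1 sample gave 4 oligodendrocyte genes in 6 cases, 6 (without pup hippocampus replicate 2) to 11 cell cycle genes, 6 thin filament genes without pup heart replicate 1 and 5 pairs without pup heart replicate 2. Without pup hippocampus 1 and pup heart 3 together, a setting chosen after seeing the data, 6 cell cycle genes were called.

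Reversals came from another probe set. Without probe sets matching several transcripts, Ttn was 0.25, Dsc2 -2.39, Rrm2 0.52, Nfix -0.68 and Plxnb3 0.89. The mean over probe sets gave Dsc2 -0.78, Dlst -0.29, Fabp3 -2.94 and Ttyh1 0.48, and the most variable one gave Dsc2 -2.39, Dlst -1.01, Fabp3 -5.90 and, for pup minus adult, Tcf7l2 2.12 and Snap25 1.63. The brightest on the pup arrays gave Dsc2 -2.39, Ndufb2 -1.68 and Plxnb3 0.89. The lists and pairs were also recomputed under settings added after seeing the data. Of 3791 values of named genes under the alternatives, 3512 kept direction and call. Beyond the probe sets, the cause was not tested. Levels near the top of the scale limit the differences of the brightest genes.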
